A study of Mus musculus with 28 samples.

Results

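A set of 10 genes of the extracellular matrix, the cell surface and the cytoskeleton was followed through RNA-seq libraries of mouse interfollicular epidermis (IFE), the skin epithelium between hair follicles. They are Hmcn1, Ltbp1, Tnc, Scube2, Cacna2d2, Shroom3, Arhgef17, Kif26a, Kif26b and Dpysl3, 10 of 55536 gene identifiers counted. They were chosen by a measured value, a lower count in labelled Slc1a3+ cells of back skin than in total IFE of the same line. The 6 libraries behind that choice therefore carry no test below. Every tested contrast lies among the other 22, and all 28 share the model's estimate of the spread.

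The series holds 28 libraries from 4 mouse lines, each with a tamoxifen-inducible Cre (CreER) named for Slc1a3, Aspm, Dlx1 or K14 (keratin 14) and a tdTomato reporter at the Rosa locus. All genotypes are labelled WT apart from these 2 alleles, which the total IFE groups carry as well. Every mouse received tamoxifen on 5 consecutive days from postnatal day 30, and skin was taken at day 49, when follicles rest (telogen). Back skin gave Slc1a3+ and total IFE (3 libraries each), Aspm+ and total (3 each) and K14+ and total (2 each). Tail skin gave Slc1a3+, Aspm+ and Dlx1+ cells and the total of each line (2 each). Cells carrying the name of the line are called labelled here. They descend from cells in which the named CreER was active during the tamoxifen days, so the group is defined by that driver and not by current expression of the gene. How labelled cells were separated is not given in the sources used here. Nothing in the labels ties the libraries of a group to different mice, and the p-values below cover library-to-library spread only, part of which may be technical.

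The matrix members act outside the cell. Hemicentin 1 (Hmcn1) is a very large secreted protein of cell-matrix contacts, latent TGF-beta binding protein 1 (Ltbp1) anchors latent TGF-beta in the matrix, and tenascin C (Tnc) is a matrix glycoprotein of developing and wounded skin. SCUBE2 (Scube2) is secreted and helps release lipid-modified hedgehog ligands, and the alpha2delta-2 protein (Cacna2d2) is an accessory subunit of voltage-gated calcium channels. Shroom3 is an actin-binding protein of apical junctions that drives apical constriction, Arhgef17 encodes a guanine nucleotide exchange factor, Kif26a and Kif26b encode atypical kinesins, and Dpysl3 encodes a collapsin response mediator protein that binds tubulin and actin. Epidermal basal cells rest on a basement membrane and depend on such matrix contacts and on the actin and microtubule networks for shape and division.

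Promoter windows were taken from RefSeq (GRCm38.p6) to show the sequence next to the start of the 3 genes with the largest fitted mean decrease outside back Slc1a3. The table held 8 of the 10 genes in 11 windows. Each printed sequence is the 250 bases before the start, 5′ to 3′ on the gene's strand, with matches to the searched motifs in capitals.
Hmcn1 (chr1:150993436-150993685, minus strand): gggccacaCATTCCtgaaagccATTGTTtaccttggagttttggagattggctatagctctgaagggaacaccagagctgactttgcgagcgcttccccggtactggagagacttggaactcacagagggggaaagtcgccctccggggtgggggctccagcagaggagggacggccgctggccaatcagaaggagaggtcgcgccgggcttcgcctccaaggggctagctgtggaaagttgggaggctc
Ltbp1 (chr17:75005279-75005528, plus strand): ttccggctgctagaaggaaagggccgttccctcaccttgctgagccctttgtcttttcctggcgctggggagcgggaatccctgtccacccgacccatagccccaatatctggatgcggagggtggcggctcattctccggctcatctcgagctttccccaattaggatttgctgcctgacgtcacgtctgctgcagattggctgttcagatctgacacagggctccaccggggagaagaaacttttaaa
Cacna2d2 (chr9:107399630-107399879, plus strand): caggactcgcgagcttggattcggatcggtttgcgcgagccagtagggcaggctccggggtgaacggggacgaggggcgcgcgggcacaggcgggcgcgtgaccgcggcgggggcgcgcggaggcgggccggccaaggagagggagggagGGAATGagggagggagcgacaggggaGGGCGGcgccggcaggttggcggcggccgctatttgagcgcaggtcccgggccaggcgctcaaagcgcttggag
In all, 7 short motifs were searched on both strands of the 300-base windows, which add 50 bases after the start. GC boxes (GGGCGG) were found in 7 of the 11 windows, belonging to 6 genes, against 35.7% of all 32851 windows. The Tnc windows held the same GC box, counted in each. The median share of G and C was 63.3% in the 11 windows and 52.7% in all windows, so nothing is read from the GC box count. TEAD motifs (GGAATG) stood in 2 windows, those of Hmcn1 and Cacna2d2, against 14.7%. A SOX motif (AACAAT) stood in the Hmcn1 window, against 10.7% of all windows. Both Tnc windows, which overlap, held the same TATA box (TATAAA), against 13.6%. AP-1 (TGANTCA, 7.8% of all windows), TCF (ATCAAAG, 3.7%) and homeobox (TAATTA, 5.3%) letters were in none of the 11 windows. The printed Ltbp1 window held none of the 7. These matches describe the letters only. Beyond the GC box no searched motif was shared by more than 2 of the genes.

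Library totals ran from 7738262 to 37670589 counts. Levels are given as CPM, the count relative to the library total, with totals scaled by edgeR's TMM method. Within a group libraries correlated at r = 0.962 or more over log2 CPM, except for the total IFE library of back Slc1a3 replicate 4 (r = 0.908 and 0.91 with its group), which also had the lowest total and 14436 genes with a count. The 7 markers of interfollicular basal cells, Krt14 and Krt5 among them, summed to at least 43000 CPM in every library. Markers of fibroblasts summed to 6.83 to 43.7 CPM, with Pdgfrb at 0 in 8 of the 12 groups.

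In back skin, where the genes were chosen, all 10 were lower in Slc1a3+ cells than in total IFE, and their libraries did not overlap. Fitted differences ran from -3.59 (Kif26a) to -1.73 (Scube2) on the log2 scale. Because the choice fixes this direction, nothing is read from it, and 3.35% of all 17493 genes tested had lower, non-overlapping libraries in the same comparison (45.5% had any lower value). Hmcn1 was at 2.68, 1.45 and 1.54 CPM in the Slc1a3+ libraries and at 25.5, 23.3 and 14.4 CPM in total IFE. Kif26a was at 0.799, 2.47 and 3.49 CPM against 7.07, 15.7 and 59.9 CPM, and Tnc at 2.74, 3.64 and 5.19 CPM against 9.67, 10.3 and 28.5 CPM. For both, the highest total is replicate 4, the library that stood apart. In the 3 numbered pairs the median over the 10 genes was 16.9% to 25.3% of total.

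**Figure D1:**
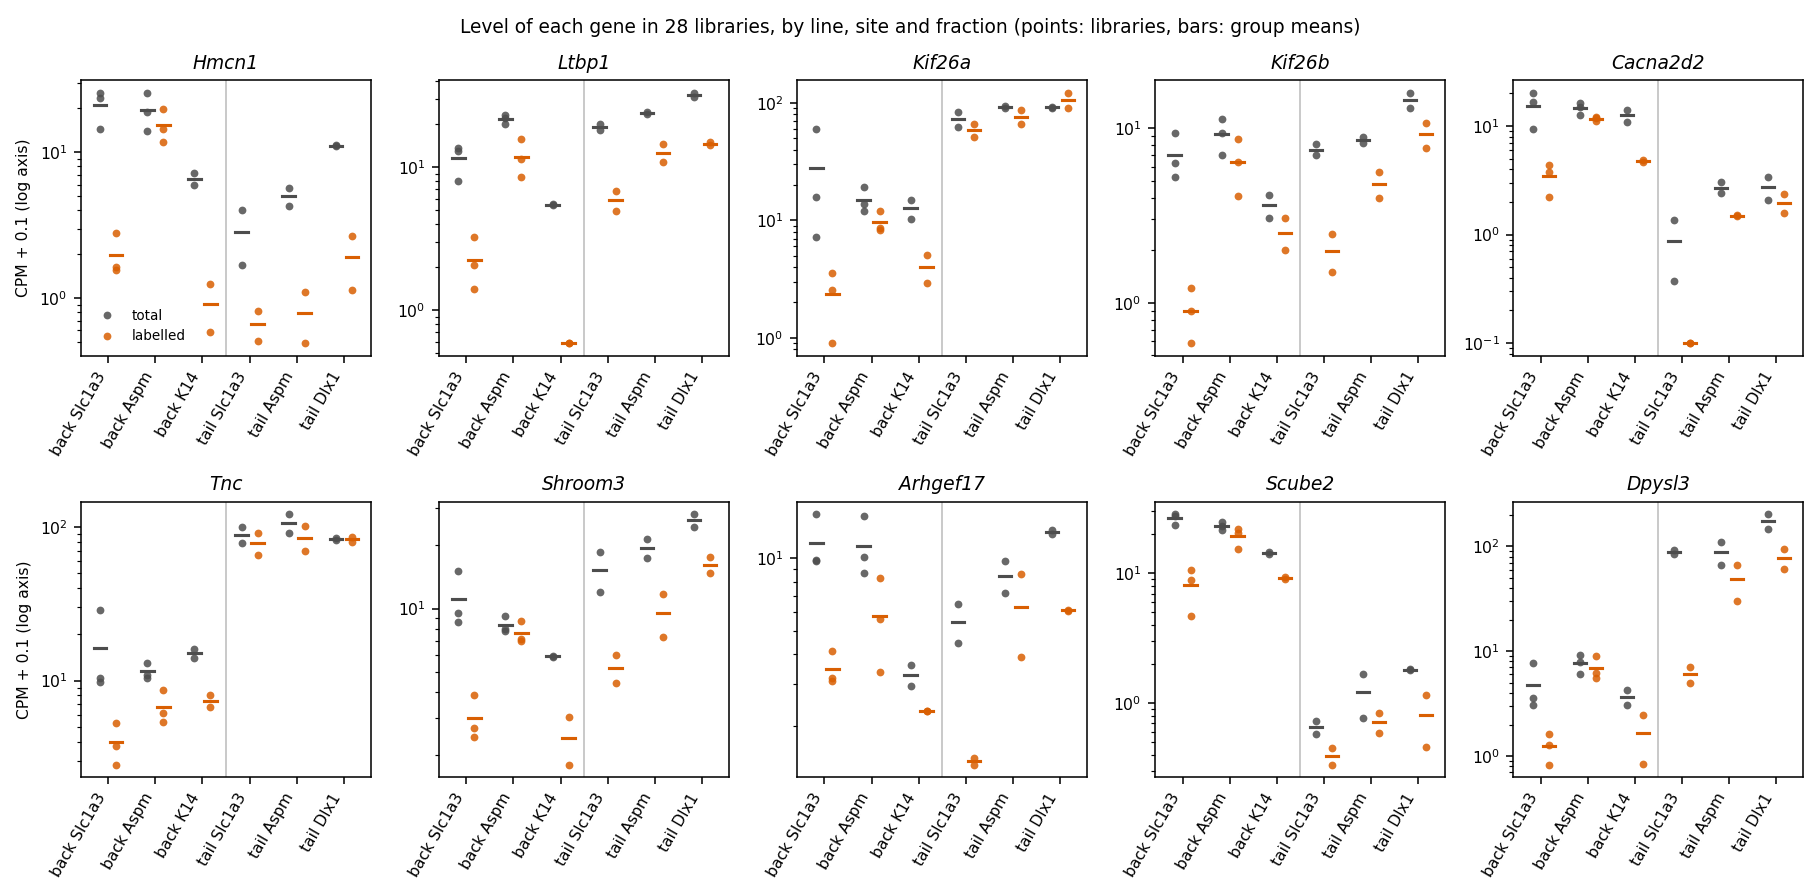
CPM plus 0.1 on a log axis for each gene in the 28 libraries, grouped by line and site, with total IFE in grey and labelled cells in orange. Points are libraries and bars are group means. Labelled libraries of most groups sit below their totals. By group mean, Tnc, Kif26a and Dpysl3 sit higher in tail than in back, apart from Dpysl3 in tail Slc1a3+, whereas Scube2 and Cacna2d2 sit lower.

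Outside back Slc1a3, the question was whether the same genes were lower in labelled cells of other lines and of tail skin. The average of the 5 remaining labelled-over-total comparisons was negative for all 10 genes (50.3% of all genes were below 0), with a median of -0.99 on the log2 scale against -0.001 over all genes. Hmcn1, Ltbp1, Kif26b, Cacna2d2, Shroom3, Arhgef17 and Dpysl3 fell in edgeR's quasi-likelihood test, 7 of 10 genes against 0.932% of all genes. Scube2 (-0.78 ± 0.20 SE, edgeR adjusted p = 0.058), Tnc (-0.46 ± 0.15 SE, adjusted p = 0.249) and Kif26a (-0.53 ± 0.26 SE, adjusted p = 0.707) did not pass. Labelled and total libraries with the same number deviated together, in some lines no more than equal numbers of other lines or sites did. With the number as a replicate block all 10 passed in edgeR, against 2.24% of all genes in either direction (adjusted p = 0.0432 for Scube2, 0.000872 for Tnc and 0.0127 for Kif26a). Averaged over 4 comparisons, without the tail Slc1a3 line, 3 genes passed, namely Hmcn1, Ltbp1 and Shroom3, against 0.166% of all genes in either direction. In bulk RNA, fewer cells of a type and less RNA per cell cannot be told apart, here and in every comparison that follows.

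**Figure D2:**
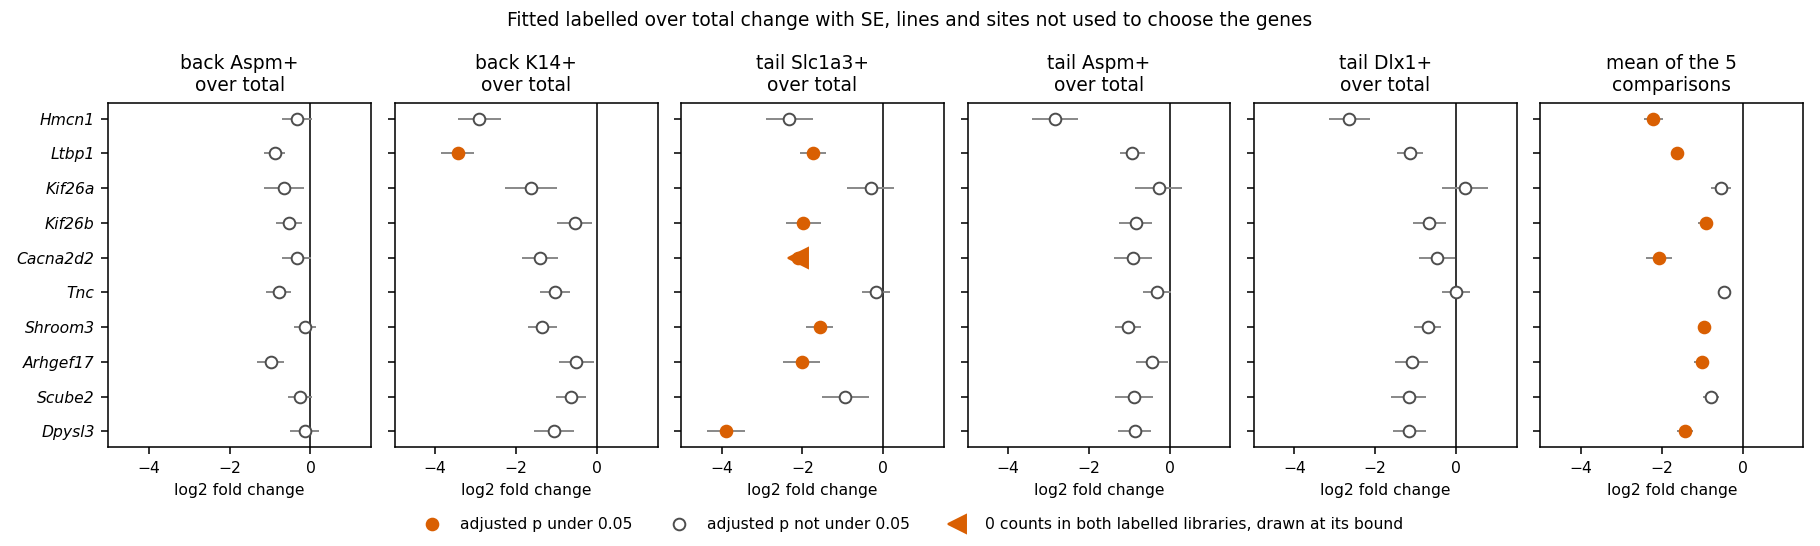
Fitted log2 fold change, labelled over total, with its standard error for the 10 genes in the 5 comparisons not used to choose them and in their mean. Filled points passed an adjusted p of 0.05, and the triangle marks Cacna2d2 in tail Slc1a3+ cells, drawn at its bound. Ltbp1 and Hmcn1 lie farthest left in back K14+, and tail Slc1a3+ holds the most filled points (6).

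Over the 11 numbered pairs outside back Slc1a3, 102 of 110 combinations of gene and pair were lower in the labelled library, against 48.4% over all genes. Ltbp1, Cacna2d2 and Arhgef17 were lower in all 11 pairs, as were 0.955% of all genes. With Hmcn1, Kif26b, Tnc, Shroom3, Scube2 and Dpysl3 at 10 pairs each, 9 genes were lower in at least 10 pairs, against 3.08% of all genes, and Kif26a was lower in 9. The pair median was deepest for Hmcn1, whose labelled level was 18.1% of total, followed by Ltbp1 at 42.5%, Dpysl3 at 46.8% and Arhgef17 at 47.6%. It was shallowest for Kif26a at 73% and Tnc at 76.7%. The 8 exceptions were 3 genes in back Aspm pair 1, 1 gene in back Aspm pair 2, 1 gene in tail Aspm pair 2 and 3 in the tail Dlx1 pairs.

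**Figure D3:**
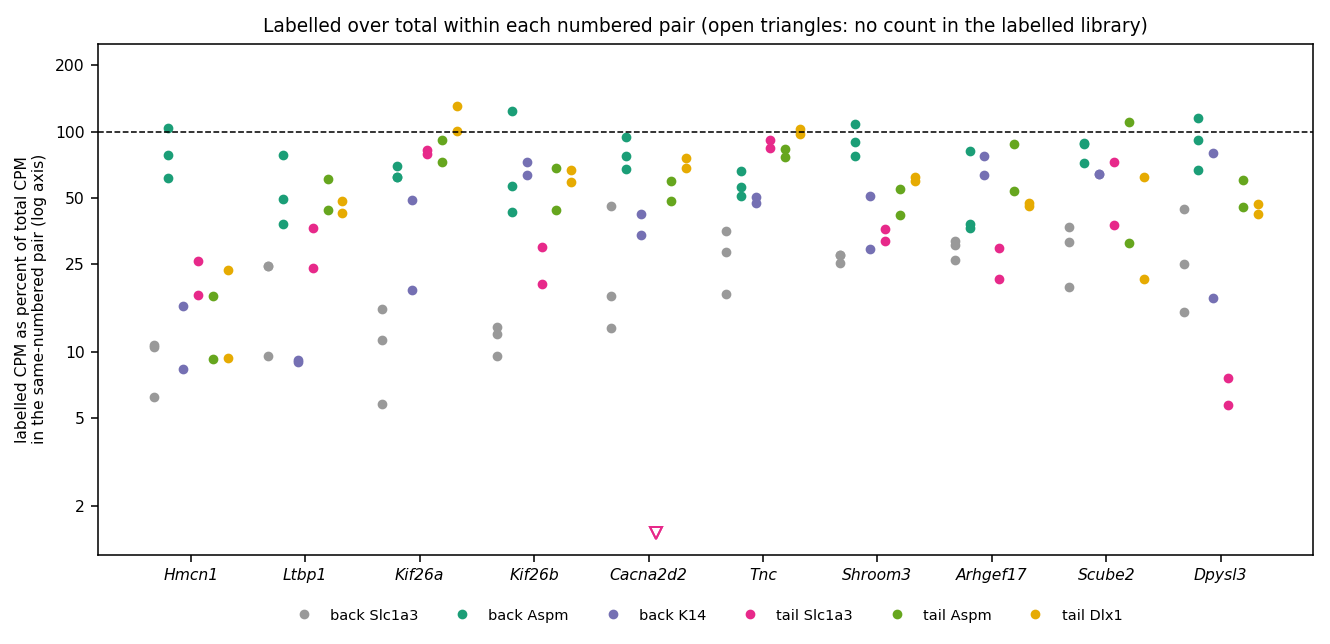
CPM of the labelled library as a percent of its same-numbered total, on a log axis, for each gene and pair, coloured by line and site. Points below the dashed line at 100% are lower in labelled cells. Hmcn1 lies at 25.7% or less in every pair outside back Aspm and back Slc1a3, and Cacna2d2 had no count in either tail Slc1a3+ library.

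Among the matrix genes, Hmcn1 (chromosome 1, 150562524 to 150993435, minus strand, GRCm38) had the largest mean decrease, -2.21 ± 0.23 SE (edgeR adjusted p = 8.77e-06). Its back libraries were high in the Aspm line and low in K14+ cells. Aspm+ libraries held 14.4, 19.8 and 11.6 CPM and Aspm total 13.8, 25.4 and 18.8 CPM, which overlap. K14+ libraries held 1.14 and 0.49 CPM against 7.1 and 5.87 CPM in total. In the tail the labelled libraries were at 0.391 to 2.57 CPM. Tail total held 1.58 and 3.93 CPM in the Slc1a3 line, 4.2 and 5.56 CPM in the Aspm line and 10.9 and 11.1 CPM in the Dlx1 line. Thus in the K14 line and in each tail line no labelled library reached its total. The fitted change was -2.91 in K14+ (adjusted p = 0.0888), -2.32 in tail Slc1a3+ (0.079), -2.84 in tail Aspm+ (0.356) and -2.64 in tail Dlx1+ (0.0869), so none of these passed singly. With the replicate block each of the 4 passed (adjusted p = 0.00475, 0.0171, 0.029 and 0.00228). The paralogue Hmcn2 had group means of 0.0725 to 0.339 CPM in back skin and 1.09 to 2.16 CPM in tail, and did not pass in the mean comparison (0.22, edgeR adjusted p = 1).

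Ltbp1 (chromosome 17, 75005568 to 75392512, plus strand) was lower in all 11 pairs, with a mean decrease of -1.63 ± 0.15 SE (edgeR adjusted p = 5.98e-07). Back K14+ libraries held 0.486 and 0.49 CPM and their totals 5.31 and 5.43 CPM. This was the 1 gene of all 17493 that passed in back K14+ (-3.45 ± 0.40 SE, adjusted p = 0.000161), and without K14+ replicate 1 it missed the threshold (adjusted p = 0.0673). In tail Slc1a3+ cells Ltbp1 was at 4.83 and 6.65 CPM against 20 and 18.2 CPM and fell by 1.74 on the log2 scale (adjusted p = 0.00728). Tail Aspm+ held 14.3 and 10.7 CPM against 23.4 and 24.2 CPM, and tail Dlx1+ held 14.8 and 14.1 CPM against 30.6 and 33 CPM. Back Aspm+ held 15.5, 8.37 and 11.3 CPM against 19.8, 22 and 22.9 CPM. In these 3 groups the libraries did not overlap, and the fitted values of -0.93, -1.14 and -0.88 did not pass (adjusted p = 1, 0.52 and 1).

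Of the other 17 genes listed with Ltbp1 for the latent TGF-beta complex and its activation, 2 fell and 0 rose in the mean comparison, with a median of -0.36. They were Ltbp3, another latent TGF-beta binding protein (-0.36 ± 0.07 SE, edgeR adjusted p = 0.0107), and Itgb8, the beta chain of an integrin that activates latent TGF-beta (-1.35 ± 0.32 SE, adjusted p = 0.0372). Ltbp4 (-0.28, adjusted p = 0.0828) and Ltbp2 (-2.12, adjusted p = 0.0591) did not pass. The list with Hmcn1, of hemicentins, fibulins and basement membrane linkers, had 12 other genes tested with a median of -0.10. Among these 12, Fbln2, a fibulin of basement membranes, was the 1 gene that fell (-2.79 ± 0.52 SE, adjusted p = 0.00538). The size of that mean rests partly on zeros, since Fbln2 was at 0 CPM in both back K14+ libraries, against 0.942 and 0.98 CPM in total. No bound was put in place of those zeros, and Fbln2 was low elsewhere, with a highest group mean of 8.02 CPM in tail Dlx1 total.

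Tnc (chromosome 4, 63959785 to 64047015, minus strand) differed between the sites more than between fractions. Tail libraries held 78.3 to 121 CPM in total (median 87.4) and 65.9 to 101 CPM in labelled cells (median 83.2), and these ranges overlap. Back levels were lower. Outside the Slc1a3 line, back Aspm+ held 6.01, 5.27 and 8.61 CPM against 10.8, 10.3 and 13 CPM (-0.79 ± 0.30 SE, edgeR adjusted p = 1). Back K14+ held 6.66 and 7.97 CPM against 14 and 15.9 CPM (-1.04 ± 0.37 SE, adjusted p = 1, and 0.0305 with the replicate block), and neither line overlapped. In tail Dlx1+ cells the libraries lay on both sides of their totals, 86.5 and 79.9 CPM against 84.2 and 82 CPM. Of the other 9 genes tested in the tenascin list, Postn, which encodes the matrix protein periostin, fell in the mean comparison (-0.96 ± 0.22 SE, adjusted p = 0.0372) and in tail Slc1a3+ (-2.46, adjusted p = 0.035).

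Scube2 (chromosome 7, 109798676 to 109865679, minus strand) was a back skin transcript. Back total held 13.9 to 28.5 CPM (median 23.4) and tail total 0.482 to 1.72 CPM (median 1.12). Back K14+ held 8.89 and 9.25 CPM against 13.9 and 14.4 CPM, without overlap, and back Aspm+ held 20.5, 15.3 and 22 CPM against 23.2, 21.4 and 24.7 CPM, with overlap. In the tail every labelled library was at 1.06 CPM or less, where few reads were counted. None of the 5 comparisons passed for Scube2. Of the other 13 genes tested in the list of SCUBE proteins and of hedgehog release and reception, 0 passed and 12 lay below 0 in the mean comparison, with a median of -0.23.

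Cacna2d2 (chromosome 9, 107399612 to 107529343, plus strand) had the same order of sites. Back total held 9.32 to 20.2 CPM, whereas tail total held 0.275 to 3.28 CPM. Back K14+ held 4.57 and 4.78 CPM against 10.8 and 14.1 CPM (-1.41 ± 0.44 SE, edgeR adjusted p = 1), and back Aspm+ held 12.1, 11 and 11.7 CPM against 12.7, 16.4 and 15 CPM, both without overlap. Neither tail Slc1a3+ library had a count, and their totals held 0.275 and 1.26 CPM. Against a floor of 3 counts per library the level was at least 4.35-fold lower in tail Slc1a3+ cells (adjusted p = 0.00446). Without total replicate 2 this bound was 1.56-fold and the call was lost (adjusted p = 0.262), as it was without Slc1a3+ replicate 1 (0.117) or 2 (0.108) and by limma-voom (0.209). The fitted mean over 5 comparisons, -2.07 (adjusted p = 0.000592), rests on those zeros: with the bound in their place it was -1.05, and without the tail Slc1a3 line -0.79 (adjusted p = 0.264). The paralogues Cacna2d1, Cacna2d3 and Cacna2d4 did not reach the count filter, and of the 9 other genes tested among channel subunits and partners 0 passed.

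Shroom3 (chromosome 5, 92683435 to 92965318, plus strand) fell in the mean comparison (-0.96 ± 0.15 SE, edgeR adjusted p = 0.000458). Tail Slc1a3+ libraries held 4.31 and 5.88 CPM against 11.9 and 18.4 CPM (-1.58 ± 0.34 SE, adjusted p = 0.0252). Tail Aspm+ held 11.6 and 7.21 CPM against 21.3 and 17.3 CPM, and tail Dlx1+ held 17.5 and 14.6 CPM against 28 and 24.4 CPM. Back K14+ held 1.71 and 2.94 CPM against 5.85 and 5.8 CPM. Of these 5 comparisons back Aspm was the 1 whose fractions overlapped, at 8.6, 6.89 and 7.08 CPM against 7.93, 7.71 and 9.12 CPM.

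Arhgef17 (chromosome 7, 100869752 to 100932107, minus strand) fell in the mean comparison (-1.01 ± 0.18 SE, edgeR adjusted p = 0.00346). Its tail Slc1a3+ libraries, at 1.28 and 1.37 CPM, lay below totals of 4.34 and 6.37 CPM (-2.02 ± 0.45 SE, adjusted p = 0.0326). Back Aspm+ held 8.2, 5.47 and 3.26 CPM against 10, 15 and 8.59 CPM, without overlap (-0.98 ± 0.33 SE, adjusted p = 1). Tail Dlx1+ held 6.02 and 5.96 CPM against 13.1 and 12.5 CPM. Tail Aspm+, at 8.5 and 3.79 CPM, overlapped its total at 9.68 and 7.04 CPM. Shroom4, a paralogue of Shroom3, fell in the mean comparison (-0.90 ± 0.20 SE, adjusted p = 0.0197) and in tail Slc1a3+ (-2.61, adjusted p = 0.0122). Another paralogue, Shroom2, did not pass (-0.04, adjusted p = 1).

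The kinesin genes differed in size of change and in site. Kif26b (chromosome 1, 178529125 to 178939200, plus strand) held 2.97 to 11.1 CPM in back total and 6.89 to 15.8 CPM in tail total. It fell in the mean comparison (-0.91 ± 0.18 SE, edgeR adjusted p = 0.00854) and in tail Slc1a3+, at 1.4 and 2.37 CPM against 6.89 and 7.95 CPM (-1.98 ± 0.44 SE, adjusted p = 0.031). Kif26a (chromosome 12, 112146208 to 112181747, plus strand) held 61.8 to 94.3 CPM in tail total and 7.07 to 59.9 CPM in back total. Both ends of that back range are back Slc1a3 totals, which the choice used, and 59.9 CPM is replicate 4, the library that stood apart. Back Aspm total held 11.8, 13.7 and 19.3 CPM. Tail Slc1a3+ libraries of Kif26a, at 51 and 65.7 CPM, overlapped totals of 61.8 and 83.1 CPM. In tail Dlx1+ it was at 122 and 91.1 CPM against 93.1 and 90.3 CPM, the labelled library being higher in both pairs. Back K14+ held 4.97 and 2.82 CPM against 10.2 and 14.9 CPM (-1.63 ± 0.64 SE, adjusted p = 1, and 0.0416 with the replicate block). None of the other 15 kinesins of the list passed in the mean comparison, and their median was -0.08.

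Dpysl3 (collapsin response mediator protein 4) had the deepest decrease of any member with counts in tail Slc1a3+ cells. Those libraries held 4.89 and 6.94 CPM against totals of 84.8 and 91.5 CPM, 6.71% of total in the fit (-3.90 ± 0.47 SE, edgeR adjusted p = 5.38e-05). Tail Aspm+ held 67.1 and 29.9 CPM against 111 and 65.8 CPM, where 1 labelled library exceeded 1 total, and tail Dlx1+ held 95.2 and 61.2 CPM against 203 and 145 CPM. In the back Aspm line it held 5.45, 8.97 and 6.11 CPM against 5.97, 7.77 and 9.12 CPM. The tail Slc1a3 effect minus that of tail Aspm was -3.03, and minus that of tail Dlx1 -2.74, on the log2 scale, and neither difference passed (adjusted p = 0.0965 and 0.2). With the replicate block both passed (adjusted p = 0.00288 and 0.00613). Of its paralogues Dpysl5 and Dpysl2 were tested, and neither passed in the mean comparison (adjusted p = 0.23 and 1).

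Line by line, tail Slc1a3+ cells held most calls. All 10 genes lay below 0 (48.8% of all genes), 6 fell (0.497% of all genes), 8 had non-overlapping lower libraries (15.9% of all genes), and the median was -1.86. Leaving out either Slc1a3+ library left 1 gene past the threshold, Dpysl3, and leaving out total replicate 2 left 2. In back K14+, 10 lay below 0 (48.5%), 1 fell (0.00572%), and the libraries of all 10 did not overlap (15.6%). With the replicate block 4 fell there, namely Hmcn1, Ltbp1, Kif26a and Tnc, against 0.103% of all genes in either direction. In tail Slc1a3+ the block added Hmcn1, giving 7 against 1.49%.

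In the other 3 comparisons 0 of the 10 genes passed in edgeR. Back Aspm+ had 10 below 0 (46.3% of all genes) with a median of -0.44, 3 at an unadjusted p under 0.05 (1.5%) and 4 without overlap (3.26%), and 0% of all genes fell. Tail Aspm+ had 10 below 0 (52.3%) with a median of -0.88, 4 at an unadjusted p under 0.05 (1.75%) and 6 without overlap (18.9%), and 0.00572% of all genes fell. Tail Dlx1+ had 8 below 0 (49.4%) with a median of -0.90, 6 at an unadjusted p under 0.05 (2.05%) and 7 without overlap (15.6%), and 0% of all genes fell. DESeq2 called 0, 1 and 1 of the 10 genes in these comparisons, and limma-voom 0, 0 and 2. The share of all genes called by these 2 methods is not given here, so nothing about the members is read from those counts. With the replicate block the counts were 0, 1 and 1, Hmcn1 being the gene in tail Aspm+ (0.0343% of all genes passed) and tail Dlx1+ (0.463%).

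Whether the effect differed between lines or sites was tested directly. None of the 10 passed for tail Slc1a3 minus Aspm (0.04% of all genes passed), tail Slc1a3 minus Dlx1 (0.0229%), tail Aspm minus Dlx1 (0%) or Aspm in tail minus back (0%). At an unadjusted p under 0.05, in edgeR, the lower genes numbered 3 (1.71% of all genes), 3 (1.22%), 0 (0.646%) and 2 (1.24%), the last being Hmcn1 (-2.51) and Shroom3 (-0.90). DESeq2 called 1 of the 10 genes in each of the first pair of tests and 0 in the others, and its share over all genes is not given here. With the replicate block Dpysl3 passed in both of the first pair, where 0.2% and 0.103% of all genes passed.

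**Figure D4:**
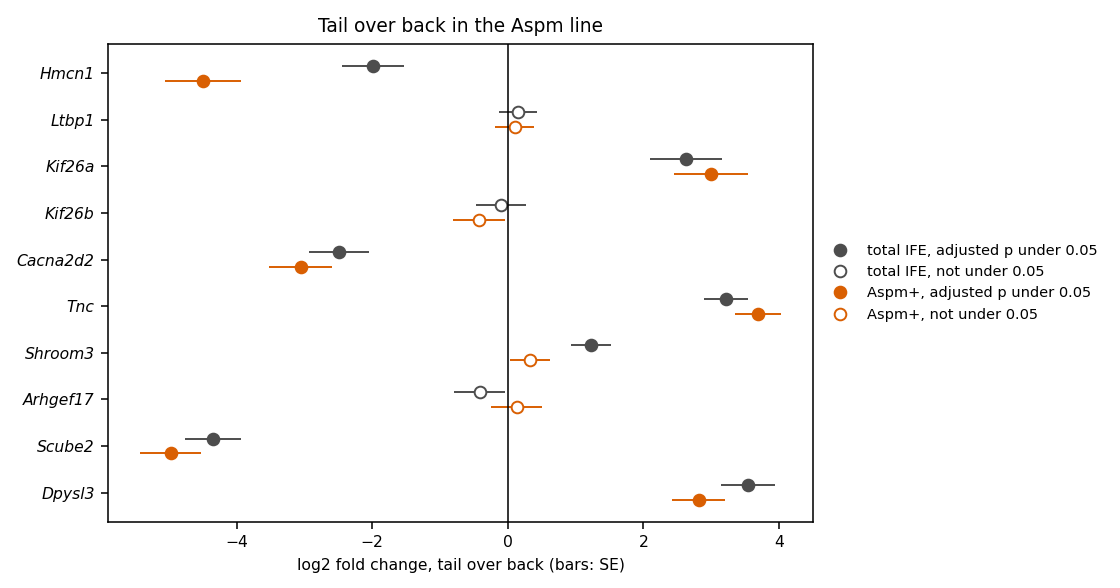
Fitted log2 fold change of tail over back in the Aspm line, with its standard error, for total IFE (grey) and Aspm+ cells (orange). Filled points passed an adjusted p of 0.05. Scube2, Cacna2d2 and Hmcn1 lie left of 0 and Dpysl3, Tnc and Kif26a right of it in both fractions.

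Site was compared within the Aspm line, the 1 line outside the choice with both sites. In total IFE 3 genes were lower in tail, against 11.8% of all genes, and 4 were higher, against 11.2%. Scube2 (-4.35 ± 0.42 SE, edgeR adjusted p = 3.52e-08), Cacna2d2 (-2.49, adjusted p = 0.000196) and Hmcn1 (-1.98, adjusted p = 0.00263) were lower. Dpysl3 (3.54 ± 0.39 SE, adjusted p = 3.35e-07), Tnc (3.21, adjusted p = 8.54e-08), Kif26a (2.63, adjusted p = 0.000992) and Shroom3 (1.22, adjusted p = 0.00348) were higher. In Aspm+ cells the same 3 were lower (14.5% of all genes), Hmcn1 by -4.49, and Dpysl3, Tnc and Kif26a were higher (12.7%). Shroom3 was at 0.33 there (adjusted p = 0.454). Ltbp1, Kif26b and Arhgef17 did not pass in either fraction (adjusted p = 0.446 to 0.881). Without tail Aspm total replicate 1, Hmcn1 and Shroom3 missed the threshold in total IFE (adjusted p = 0.066 and 0.0719). Among the other genes of the members' pathway lists, site differences in total IFE ran both ways: in the SCUBE and hedgehog list 6 of 13 were higher in tail and 0 lower, and in the tenascin list 4 of 9 were lower and 0 higher.

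Relative to gene length, levels could be compared between members. Per kilobase of annotated exon the median of back total was highest for Scube2 (5.64 CPM per kb), then Kif26a (2.06) and Cacna2d2 (1.83), and lowest for Kif26b (0.447). In tail total Dpysl3 (15.3 CPM per kb), Kif26a (13.1) and Tnc (11.2) led, and Hmcn1 (0.23) was lowest. Across groups, the highest mean level belonged to a total IFE group for 9 genes, and to tail Dlx1+ for Kif26a (107 ± 22 CPM, SD, n = 2), which overlapped its neighbours in the order. For Hmcn1, Cacna2d2 and Scube2 that total was back Slc1a3 total, which the choice used. No share over all genes is set beside the count of 9, and nothing is read from it. The lowest mean was that of back Slc1a3+, the group the choice was made on, for Kif26a, Kif26b, Tnc and Dpysl3. It was that of tail Slc1a3+ for Hmcn1, Cacna2d2, Arhgef17 and Scube2, and of back K14+ for Ltbp1 and Shroom3. Tail Dlx1 total held the highest mean of Ltbp1, Kif26b, Shroom3, Arhgef17 and Dpysl3, and for Arhgef17 it overlapped back Slc1a3 total.

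The members also varied together across the 22 libraries outside back Slc1a3, as a description over libraries that share lines and pairs. After centring log2 CPM within each site, all 45 pairs of members correlated above 0, with a median r of 0.747, from 0.093 (Tnc with Arhgef17) to 0.905 (Kif26b with Arhgef17). Differences between lines and between labelled and total libraries stay in these values. The correlations therefore partly repeat the decrease given above, and no value for other gene pairs is set beside them. Each member's r with the mean of the other 9 was 0.755 to 0.938, apart from Tnc at 0.251. Among 10055 other genes with a mean of at least 5 CPM, those most like the mean profile were Col8a1 (r = 0.965), Fst (0.941), Pappa (0.938), Sostdc1 (0.925), Cxcl12 (0.924), Nt5e (0.921), Igsf9 (0.916) and Fgfr1 (0.912).

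Several markers of the hair follicle were also lower in labelled cells, though the raw sum of bulge and germ markers was not in step with the members in every pair. The summed CPM of 10 bulge and germ markers (such as Sox9, Lhx2 and Cd34) was lower in the labelled library of all 14 pairs, at 34.8% to 99.5% of total. It ran from 406 to 454 CPM in tail Slc1a3+ against 1150 to 1170 CPM in total, and none of the 10 markers was at 0 in any group. Postn weighed heavily in this raw sum, with means of 140 CPM in tail Slc1a3+ and 770 CPM in total. There Sox9 held 8.12 against 41.8 CPM, Lhx2 2.41 against 10 CPM and Cd34 2.71 against 17.2 CPM. In back K14, Postn held 176 of a summed 472 CPM in labelled cells and 285 of 601 CPM in total. Single markers there were Sox9 at 3.64 against 7.91 CPM, Lhx2 at 1.24 against 2.19 CPM and Cd34 at 0.664 against 0.838 CPM. In back Slc1a3, Sox9 held 9.76 against 19.7 CPM, Lhx2 2.06 against 4.27 CPM and Cd34 1.02 against 0.602 CPM. In the mean comparison, where 0.932% of all genes fell, 4 of the 10 markers fell, namely Cd34 (-2.41), Sox9 (-1.42), Lhx2 (-1.60) and Postn (-0.96), with edgeR adjusted p = 0.000295, 3.05e-05, 0.000316 and 0.0372. Of 8 upper follicle and sebaceous markers 3 fell as well, Lrig1 (-1.10), Krt17 (-0.81) and Krt79 (-0.59), with edgeR adjusted p = 0.000549, 0.00346 and 0.0199, and the sum of the 8 was 49.5% to 104% of total. The lowest bulge and germ sums belonged to the tail Slc1a3 pairs (34.8% and 39.5%), where the median member was at 27.6% and 30.9% of total. In back K14 the marker sum was 76.8% and 80.4% with the median member at 48.2% and 42%. Back Aspm pair 1 had a marker sum of 81.4% with the median member at 89.8%. Back Slc1a3 pair 4 had 99.5% with 22.1%, and pair 2 had 78.3% with 16.9%, the members there being fixed by the choice. The part of these markers in the members' decrease was not tested. Interfollicular basal markers were at 102% to 123% of total in the 11 pairs outside back Slc1a3, and 0 of 7 passed in the mean comparison. Spinous and granular markers, of the differentiating layers, were at 115% to 136% of total in the same 11 pairs, higher in each, and 0 of 7 passed in the mean comparison. In back Slc1a3 pairs 1, 2 and 4 the basal sum was 98.6%, 104% and 63.4% of total. The spinous and granular sum was 157%, 111% and 82.4% there, the total of pair 4 being the library that stood apart. Markers of fibroblasts, endothelium, Merkel cells, muscle, melanocytes and Schwann cells, and Langerhans and T cells gave 0 called in the mean comparison. The fibroblast sum was 36.6% to 144% of total in the 11 pairs outside back Slc1a3, and the endothelial sum 28.9% to 164% at levels of 1.92 to 16 CPM.

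**Figure D5:**
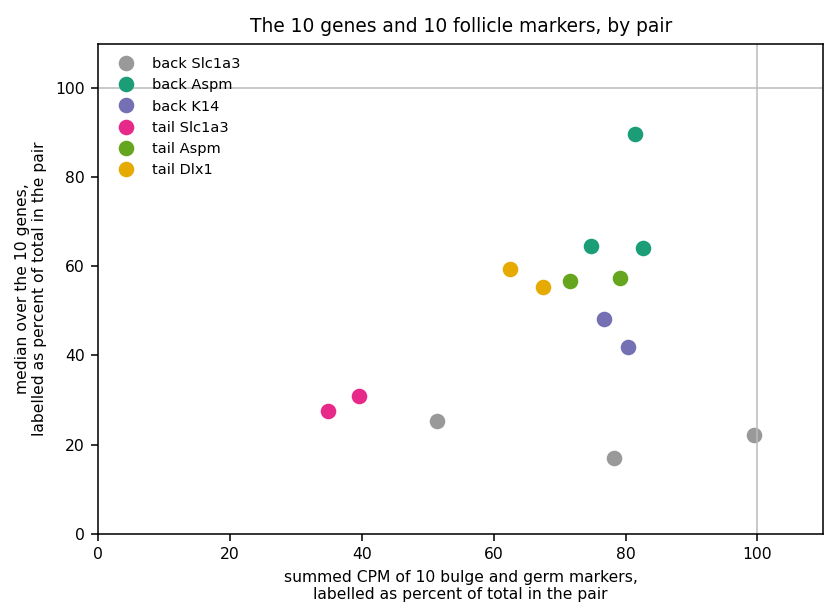
For each of the 14 pairs, the median labelled percent of total over the 10 genes (vertical) against the same percent for the summed CPM of 10 bulge and germ markers (horizontal). Colours give line and site. The tail Slc1a3 pairs are low on both axes, and the back K14 pairs lie at 48.2% and 42% for the genes with marker sums of 76.8% and 80.4%. The height of the 3 back Slc1a3 pairs was fixed by the choice of genes. Postn weighs heavily in the marker sum, with a mean of 770 of 1160 CPM in tail Slc1a3 total.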

How the data were processed

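Poly(A) RNA from 28 libraries was measured by RNA-seq with a non-directional kit, per the labels' protocols. The deposited files hold 1 raw read count per gene and library. Per the submitters' processing notes, the authors used Trim Galore 0.6.0, cutadapt, FastQC, STAR 2.7.0e and DESeq2 1.26.0 with the GRCm38 (mm10) build; the notes used here give no role or order. The counter, annotation and strand setting are not given in the sources used here, so reads of overlapping antisense genes cannot be told apart. Those annotated over the members held at most 48 counts each over all libraries.

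All 55536 identifiers matched GENCODE M21. In R 4.3.3, counts were scaled by TMM and filtered with filterByExpr (minimum count 10), leaving 17493 genes, all 10 members among them. A quasi-likelihood model was fitted over 12 groups in edgeR 4.0.16 (16 residual degrees of freedom, biological coefficient of variation 0.28), with Benjamini-Hochberg adjustment over all genes and a threshold of 0.05. The members and lists were chosen with earlier results of these data known. Named genes were the members, list genes that passed in a labelled-over-total comparison, the members' paralogues and the 8 genes of most similar profile. List genes in the site comparisons are given as counts. The results of 1 pathway list are not reported here.

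Whether numbers pair libraries was checked over 10376 genes. In all 14 pairs of 1 line and site the deviations from group means correlated (r = 0.18 to 0.689), whereas equal numbers elsewhere gave -0.262 to 0.379. In groups of 2 libraries centring gives both pairs the same r, so the 14 values are not all separate. The pairs of back Slc1a3 (0.18 to 0.216), back K14 (0.362) and tail Aspm (0.321) lay within the range found elsewhere. The replicate block is given where it changes a call. Other alternatives were no filter, library totals, relative log expression factors, DESeq2 1.42.0, limma-voom (limma 3.58.1), compared groups alone, and each library left out. The code was tested on simulated data. Other software was Python 3.11.15, numpy 2.4.6, pandas 2.3.3 and matplotlib 3.10.9.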

Additional observations from a re-analysis of the deposited data

Results flagged for a closer look

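Kif26a was higher in the labelled library of both tail Dlx1 pairs and lower in every pair of the 3 back lines. The mean log2 ratio of back Aspm minus that of tail Dlx1 was -0.83, that of back K14 minus tail Dlx1 was -1.89, and that of back Slc1a3 minus tail Dlx1 was -3.44. These 3 differences were not tested, and the last includes the libraries that chose the gene. Within the tail, where the difference had its own edgeR test, Slc1a3 minus Dlx1 was -0.53 and Aspm minus Dlx1 -0.49 (adjusted p = 1 for both). The 2 tail Dlx1 pairs themselves were unlike, at 131% and 101% of total, and neither library pair alone gives an error.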

How the results depend on the processing

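Of 88 values of a member in a comparison, 0 changed sign with either value past the threshold. The 88 leave out effect differences between lines or sites whose unadjusted p in the main edgeR fit was not under 0.05. Changes of sign among those left out are not given here. Tnc in tail Dlx1+ over total, at 0.0006 on the log2 scale, turned to -0.004 (no filter), -0.008 (DESeq2 and relative log expression), -0.045 (library totals), -0.003 (limma-voom), -0.001 (without the 6 back Slc1a3 libraries, or compared groups alone), 0 (replicate block) and -0.002 (replicate block without those 6). Leaving out 1 library at a time spanned 0 for Arhgef17 (-0.558 to 0.585), Ltbp1 (-0.111 to 0.367) and Shroom3 (-0.043 to 0.625) in Aspm+ tail over back, Kif26b (-0.271 to 0.060) in Aspm total tail over back, Arhgef17 in tail Aspm+ (-1.126 to 0.017), Dpysl3 in back Aspm+ (-0.394 to 0.017), Kif26a (-0.008 to 0.423) and Tnc (-0.057 to 0.065) in tail Dlx1+, and Tnc in tail Slc1a3+ (-0.443 to 0.025). None of these values passed the edgeR test.

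Counts of members passing moved as follows, and the cause was not tested. Shares over all genes are not given beside them here, so a change in the members cannot be told from a change in calling at large. With the replicate block, all genes called in either direction went from 90 to 261 in tail Slc1a3+ and from 166 to 392 in the mean. Back K14+ (1): 4 with no filter, 2 by DESeq2, 0 by limma-voom or in the compared groups alone, 4 with the replicate block and 6 with the block without the back Slc1a3 libraries. Tail Slc1a3+ (6): 2 by limma-voom or in the compared groups alone, and 7 with no filter, by DESeq2, with the block and with the block without those libraries. Tail Aspm+ (0): 1 with no filter, DESeq2 or the block, and 3 with the block without those libraries. Tail Dlx1+ (0): 2 with no filter or limma-voom, 1 by DESeq2, without those libraries or with the block, and 3 with both. Back Aspm+ (0): 2 with the block without those libraries. Mean over 5 comparisons (7): 3 without the tail Slc1a3 line, 8 by DESeq2 or with library totals, and 10 with no filter, without the back Slc1a3 libraries, in the compared groups alone, and with the block with or without those libraries. The Aspm effect in tail minus back (0): 1 with no filter. Tail Slc1a3 minus Aspm (0): 1 with no filter, DESeq2 or the block, 2 with the block without those libraries. Tail Slc1a3 minus Dlx1 (0): 2 with no filter, 1 by DESeq2, in the compared groups alone or with the block, 2 with the block without those libraries. Leaving out each library in turn gave 0 to 1 in back K14+, 1 to 6 in tail Slc1a3+, 0 to 1 in tail Dlx1+ and in both tail Slc1a3 differences, 7 to 9 for the mean, 5 to 7 and 6 to 6 for the site comparisons in total and Aspm+, and 0 to 0 in the rest. The libraries left out were those of the compared groups and, for every comparison, back Slc1a3 total replicate 4. The highest counts in tail Slc1a3+ (6), tail Dlx1+ (1) and the mean (9) came only from leaving out that replicate, which lies outside these comparisons. Leaving out any library of the compared groups gave fewer in each of these. A group reduced to 1 library is assumed to vary like the others. The site comparisons have no replicate block, since pairs lie within a site. The block without the back Slc1a3 libraries, the mean over 4 comparisons and the fit without back Slc1a3 total replicate 4 were chosen after seeing the data. That last fit passed Hmcn1 in tail Dlx1+ (adjusted p = 0.0366) and 9 members in the mean. Among the members, the block with all libraries changed no call beyond the comparisons listed for it, and it lost none. Groups of 2 libraries limit the precision, and levels under 1 CPM rest on few counts.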
